A study of Mus musculus with 18 samples.

Results

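Enterocytes are the absorptive cells of the gut lining, and here they were taken from single-cell RNA libraries of lineage-traced ileal epithelium. A barcode was kept when it held 500 to 18000 unique molecular identifiers (UMIs, each standing for 1 captured RNA molecule) from 200 to 4000 genes with under 5% from mitochondrial transcripts. A kept barcode was called an enterocyte when the 5 lipid carriers Apoa1, Apoa4, Fabp1, Fabp2 and Fabp6 gave at least 2% of its UMIs, the alpha-defensins of Paneth cells under 20%, and the goblet cell products Muc2, Zg16, Clca1 and Fcgbp together under 1.5%. Members were thus selected on their measured levels of these genes, which are given below as a description. This left 1074 enterocytes of 26266 kept lineage-traced barcodes, or 4.09%, out of 51959 kept barcodes in the 8 single-cell RNA libraries of the series.

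The study asked what Setdb1, a histone H3 lysine 9 methyltransferase, does in Lgr5+ intestinal stem cells and their progeny. The 4 lineage-traced libraries came from male mice on a C57Bl6 background, 60 to 65 days old, given tamoxifen into the peritoneum (70 mg/kg, dissolved in corn oil) and analyzed on day 5. Both groups carried the Lgr5-GFP-CreERT2 knock-in and the nTnG reporter, which switches from tdTomato to GFP in a cell with active Cre and in all its descendants. The 2 WT libraries were from Lgr5-GFP-CreERT2/nTnG mice, and the 2 Setdb1-KO libraries were from Lgr5-GFP-CreERT2/Setdb1lox/lox/nTnG mice, in which Cre also removes exon 3 of Setdb1. GFP+ cells were sorted from an ileal fraction prepared to contain mainly crypts, so the villus was sampled only in part, and the Lgr5 knock-in is mosaic, so only some crypts are traced. Although the labels describe the sorted cells as stem cells, the nTnG gate takes in the differentiated progeny as well. The comparison sort, called Lgr5+ here, used mice of the same genotypes without nTnG, in which GFP marks the cells that express Lgr5 itself.

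Enterocytes arise from crypt progenitors, move up the villus and are shed at its tip, and their program changes on the way from antimicrobial products at the villus bottom to nutrient uptake in the middle and to cell adhesion, purine breakdown and apolipoproteins at the tip. Their apical membrane is folded into a brush border of microvilli that carries the last digestive enzymes and the transporters for sugars, amino acids and lipids. In the ileum they also recover bile acids, for which Fabp6 is the intracellular carrier.

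Enterocytes made up 758 of 7589 kept barcodes in WT replicate 1 (9.99%, exact binomial 95% interval 9.32 to 10.7%) and 175 of 3696 in WT replicate 2 (4.73%, 4.07 to 5.47%). In Setdb1-KO they were 17 of 4758 barcodes in replicate 1 (0.357%, 0.208 to 0.571%) and 124 of 10223 in replicate 2 (1.21%, 1.01 to 1.44%). Both Setdb1-KO shares lay below both WT shares, with group means of 7.36% ± 3.71 (SD, n = 2) and 0.785% ± 0.605 (SD, n = 2). Since the rule sets membership by expression, these shares are a description and carry no test. Intervals here and below cover counting error only. The labels do not say how many mice stand behind a library, so that p-values refer to the spread between libraries. The gene tests below estimate that spread largely over all genes together, so that a gene's own 2 values per group weigh little in its p-value. The same rule applied to the Lgr5+ sort found 48 of 4880 and 109 of 6253 barcodes in WT and 149 of 2944 and 206 of 11616 in Setdb1-KO.

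The depth behind the members differed strongly between libraries. Library totals ranged from 16881518 to 43046925 UMIs, and the enterocytes held 1037345 and 294400 UMIs in WT and 38577 and 449448 in Setdb1-KO. The median enterocyte had 1134.5 and 1303 UMIs in WT and 900 and 2840 in Setdb1-KO. In Setdb1-KO replicate 1, with its 17 cells, 1 UMI was worth 25.9 CPM before scaling between libraries, CPM being the usual unit that sets the UMIs of every library to the same total. No barcode was shared between libraries among the enterocytes, and 6 to 25 were shared among all kept barcodes of a pair of libraries.

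The median carrier share of members was 3.79% and 3.97% in WT and 3.85% and 2.94% in Setdb1-KO. Setdb1-KO replicate 2 thus lay nearest to the 2% limit. Within 0.5 percentage points of it, 125, 25, 3 and 36 cells lay inside and 141, 26, 14 and 48 outside, in the order WT replicate 1, WT replicate 2, Setdb1-KO replicate 1 and Setdb1-KO replicate 2, which is kept for every series of 4 values below. Carriers gave at least 5% of the UMIs in 251 and 68 WT cells and in 4 and 13 Setdb1-KO cells. A carrier share of 10% or more occurred in 36, 6, 0 and 0 cells.

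The label was checked on the markers that the rule did not use. Cyp3a11, a cytochrome P450 that oxidizes drugs and bile acids, was detected in 38.9% and 34.3% of WT enterocytes after each cell was thinned to 500 UMIs, against 7.52% and 8.29% of the other WT barcodes. In Setdb1-KO the shares were 5.88% (1 cell) and 2.42% of enterocytes against 0.127% and 0.0495% of the others. For Alpi, the intestinal alkaline phosphatase of the brush border, the enterocyte shares were 30.3% and 28.6% in WT and 11.8% (2 cells) and 4.03% in Setdb1-KO. The other barcodes gave 3.31%, 3.55%, 0.253% and 0.139%. Sis, the sucrase-isomaltase that splits sucrose, was found in 18.6%, 12.0%, 11.8% (2 cells) and 3.23% of enterocytes and in 2.62%, 1.82%, 0.780% and 0.307% of the others. All 3 markers were therefore more frequent in the members than in the other cells of every library, while in Setdb1-KO replicate 2 each was found in under 5% of members. A name that rests on Cyp3a11, Alpi or Sis thus fits the WT members better than the Setdb1-KO members, and the latter are called enterocytes below for the rule alone, as cells rich in lipid carrier transcripts. When at least 0.5% of UMIs from brush border digestive enzymes was required in place of the carriers, 388 and 95 WT cells and 3 and 6 Setdb1-KO cells were left.

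The carriers themselves, which chose the cells, divided the 2 genotypes. Fabp1, the liver-type fatty acid binding protein, was the most abundant of the 5 carriers in 20.7% and 15.4% of WT members and in 88.2% and 71.8% of Setdb1-KO members. Fabp2, the intestinal fatty acid binding protein, led in 35.6% and 40.6% of WT members and in 0% and 2.42% of Setdb1-KO members. Apoa1 and Apoa4, apolipoproteins of secreted lipoprotein particles, together with Fabp2, seldom led in Setdb1-KO. Apoa1 was the leading carrier in 15.8%, 15.4%, 0% and 2.42% of members, and Apoa4 in 6.20%, 7.43%, 0% and 1.61%. Fabp6 led in 18.2%, 16.6%, 11.8% and 21.0%, the one carrier here whose groups overlapped. With 17 cells in Setdb1-KO replicate 1, a count of 0 allows a share of up to 17.6%.

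**Figure D1:**
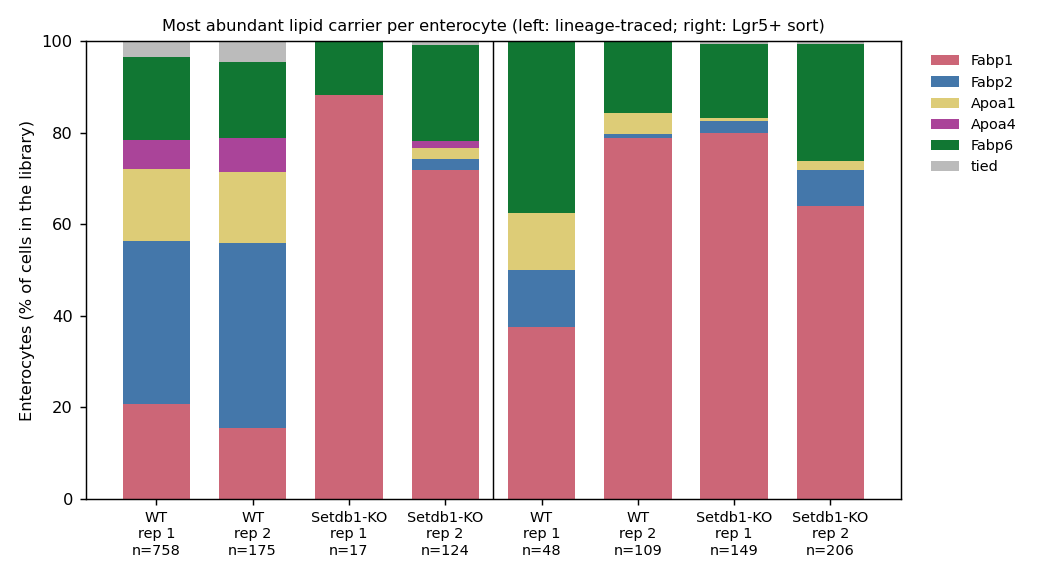
Stacked bars give, for each of the 4 lineage-traced (left) and 4 Lgr5+ sort libraries (right), the percent of enterocytes (y axis) in which each of the 5 lipid carriers was the most abundant, with ties in gray. Fabp1 led in 88.2% and 71.8% of Setdb1-KO members against 20.7% and 15.4% of WT members, and Fabp2 led in 35.6% and 40.6% of WT members.

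Levels were also summed over the members. They are given throughout as CPM of the enterocyte UMIs of the library, scaled between libraries by TMM (trimmed mean of M-values). Fabp1 stood at 12574 and 11370 CPM in WT and at 25529 and 22524 CPM in Setdb1-KO. Fabp2 stood at 19136 and 21178 CPM against 5523 and 7526 CPM, and Apoa1 at 7039 and 6967 CPM against 569 and 780 CPM. The Apoa4 level was 3432 and 2599 CPM in WT and 119 and 303 CPM in Setdb1-KO, and that of Fabp6 was 10224 and 13178 CPM against 7917 and 4142 CPM. For each of the 5 carriers the WT and Setdb1-KO libraries did not overlap, Fabp1 being the only one that was higher in Setdb1-KO. Of all genes tested below, 40.5% were lower in both Setdb1-KO libraries than in both WT libraries, and 22.3% were higher.

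Setdb1 itself was too rare to check the genotype in these cells. It gave 6 and 1 UMIs in WT members and 0 and 0 in Setdb1-KO members, where 3 UMIs would correspond to 77.8 and 6.67 CPM. Over all kept barcodes of the libraries it was at 6.16 and 4.26 CPM in WT and at 10.5 and 7.86 CPM in Setdb1-KO. Counting at the 3′ end does not see whether exon 3 was lost, so that these values check nothing about the deletion. GFP had 0 UMIs in the enterocytes of all 4 libraries. Over all kept barcodes, which come from cells sorted as GFP+, it had only 5, 0, 7 and 8 UMIs. These counts therefore do not show which cells carried the reporter.

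RNA free in the suspension is counted in every droplet, and its makeup was read from barcodes with at most 50 UMIs. Alpha-defensins gave 37.2%, 39.3%, 16.6% and 16.1% of the free RNA and 8.18%, 8.76%, 0.630% and 1.91% of the enterocyte UMIs. If all defensin UMIs in enterocytes were free RNA, it would make up at most 22.0%, 22.3%, 3.80% and 11.9% of the enterocyte UMIs. Free RNA held only 0.220 to 0.622% of its UMIs in the carriers. Markers of immune and stromal cells were close to 0: the T cell list had 4, 2, 0 and 2 UMIs in the members, the B and plasma cell list 2, 2, 0 and 0, the macrophage list 0, 0, 0 and 1 and the stroma and endothelium list 2, 1, 0 and 0. The goblet list, which the rule limits only in part, had 7092, 2726, 194 and 2649 UMIs or 0.684%, 0.926%, 0.503% and 0.589% of the total, against 2.73%, 2.65%, 2.93% and 3.09% of the free RNA. Tuft cell markers had 50, 12, 0 and 97 UMIs and enteroendocrine markers 115, 29, 4 and 42. The Paneth list, mostly defensins, took 6.91% and 7.26% of the UMIs in WT members and 0.531% and 1.71% in Setdb1-KO members, and its part in the results below was not tested beyond the values without free RNA given there. The doublet caller Scrublet marked 20, 1, 0 and 3 of the enterocytes.

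The first question was which genes differed between Setdb1-KO and WT enterocytes beyond the spread of the libraries. Setdb1-KO members had less RNA of most tested genes for digestive enzymes, microvillus proteins, fat uptake and packaging, nutrient transport, drug metabolism and MHC class II, and more of the ribosomal protein genes and of a set that includes Gpx1, Pycard and Dmbt1. Of 3414 genes tested with the quasi-likelihood test of edgeR on the summed UMIs, 1409 or 41.3% passed an adjusted p of 0.05, with 486 higher (14.2%) and 923 lower (27.0%) in Setdb1-KO. At an unadjusted p under 0.05 there were 1661 genes (48.7%), and DESeq2 called 375, of which 164 were higher and 211 lower. The median log2 fold change of all genes tested was −0.29, against which the medians of gene groups below are to be read. Counts of called members in each group, over all libraries, are likewise to be read against the 14.2% higher and 27.0% lower of all genes. Counts given below with a library left out are not to be read against these shares. In each of those fits the share of all genes called lower was smaller than in the full comparison. The median of all genes ranged from −0.38 to −0.10 in those fits. Genes that passed the filter on low counts only through their WT level had to be lower, so that a list with few members tested says little about the list. A sum over cells cannot tell less RNA in each cell from fewer cells that carry it.

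The count rested on each library. It was 302 without WT replicate 1, 318 without WT replicate 2, 1716 without Setdb1-KO replicate 1 and 348 without Setdb1-KO replicate 2. Without Setdb1-KO replicate 1, the library of 17 cells, 916 genes were higher and 800 lower, whereas without WT replicate 1 there were 40 higher and 262 lower. The share of calls that were lower was 65.5% in the full comparison, 60% with the size factors of DESeq2 in place of TMM, which put the median of all genes at −0.19, 52.3% without the doublets marked by Scrublet and 51.2% after free RNA was subtracted. Most genes kept their direction of change: of the calls that could be tested again, this held for 1368 of 1375 with free RNA subtracted and 1298 of 1377 without Setdb1-KO replicate 2. With brush border enzymes in place of carriers it held for 484 of 555, of which 44 were called again.

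Cyp3a11 showed the largest loss among the markers. It was at 2005 and 1361 CPM in WT against 23.7 and 31.8 CPM in Setdb1-KO (−5.76 ± 0.45 on the log2 scale, SE, adjusted p = 1.88e-34). Alpi was at 904 and 757 CPM against 190 and 95.4 CPM (−2.90 ± 0.36 on the log2 scale, adjusted p = 1.25e-13). For Sis the values were 498 and 382 CPM against 166 and 161 CPM (log2 fold change −1.45 ± 0.33, adjusted p = 0.000123). The size of these p-values depends on the fit. In the edgeR fit of all 8 libraries used below, the same contrast gave adjusted p-values of 1.04e-07 for Cyp3a11, 1.52e-07 for Alpi and 0.00169 for Sis. In all 3 genes both Setdb1-KO libraries lay below both WT libraries, as they did in 40.5% of all genes tested, with 22.3% above. These shares are the background for every gene below whose libraries did not overlap.

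Besides Cyp3a11, the strongest falls by adjusted p included genes of purine turnover, calcium export and lipoproteins. Ada, the adenosine deaminase of the villus tip, was at 1048 and 845 CPM in WT and at 0 and 14.7 CPM in Setdb1-KO (log2 fold change −6.15 ± 0.50, adjusted p = 7.61e-32). Gda, which deaminates guanine, fell from 701 and 604 CPM to 23.7 and 17.1 CPM. Atp2b1, a plasma membrane calcium pump, went from 805 and 673 CPM to 0 and 26.9 CPM. These 3 genes had 6, 8 and 11 UMIs in both Setdb1-KO libraries together.

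Apoc2, the activator of lipoprotein lipase, was at 1768 and 1533 CPM in WT and at 0 and 103 CPM in Setdb1-KO. Selenop, a secreted selenium carrier, was at 1349 and 1326 CPM against 47.4 and 110 CPM. Tmigd1, a cell adhesion protein of the brush border, was at 443 and 654 CPM against 0 and 31.8 CPM. The log2 fold changes of these genes were −4.26 ± 0.38, −3.74 ± 0.37 and −4.25 ± 0.44, with every adjusted p at or below 1.08e-19, and their groups did not overlap. Clca4a and Clca4b, 2 related genes of the calcium-activated chloride channel regulator family, fell by 4.24 and 3.92 on the log2 scale, from 621 and 608 CPM to 0 and 36.7 CPM for Clca4a and from 774 and 875 CPM to 71.1 and 51.4 CPM for Clca4b.

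For a few of the lowest genes, only a ratio with its counting interval can be given. Ly6m, a member of the Ly6 family, had 898 UMIs in WT and 3 in Setdb1-KO, a ratio of 110 per UMI sequenced (95% interval 37.4 to 533). Cyp2c55, a cytochrome P450, had 355 UMIs against 1, a ratio of 130 (23.2 to 5153). Gm5485, a predicted gene whose reads may be shared with near copies, was at 1258 and 1185 CPM against 23.7 and 97.9 CPM and completes the 12 genes lowest by adjusted p.

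**Figure D2:**
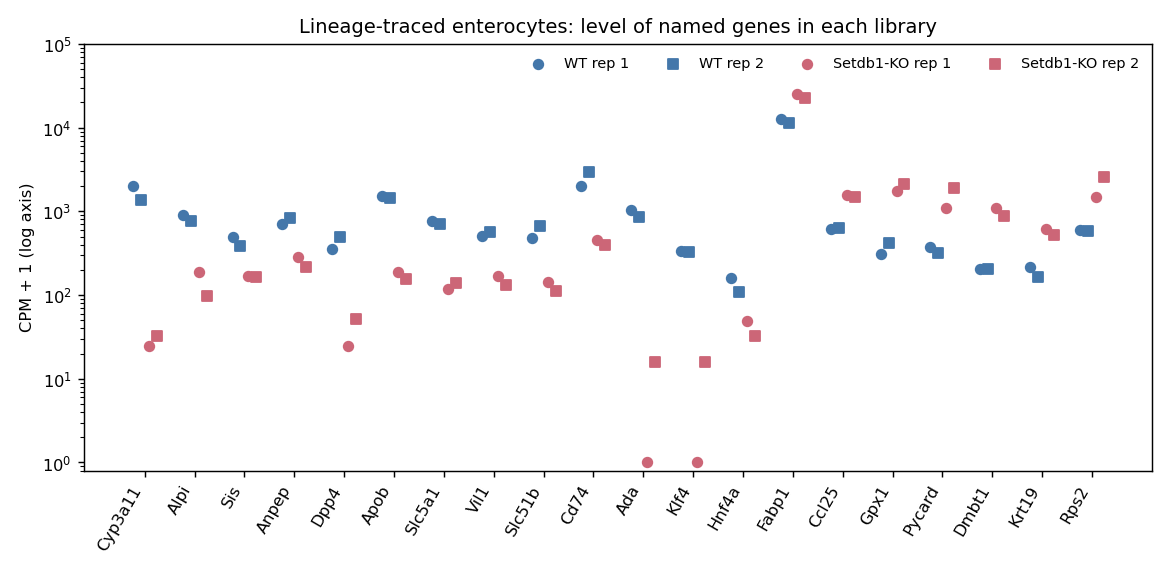
Points give the level of 20 named genes (x axis) in the 4 lineage-traced libraries as CPM + 1 (y axis, log scale), with WT in blue, Setdb1-KO in red and replicates by shape. Cyp3a11 stood at 2005 and 1361 CPM in WT and at 23.7 and 31.8 CPM in Setdb1-KO, while Gpx1 was at 307 and 413 CPM against 1730 and 2138 CPM.

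The brush border digestive enzymes fell without exception. All 15 of the list were tested and all 15 were called lower, with a median log2 fold change of −2.90, beside 27.0% of all genes called lower and a median of −0.29. Leaving out WT replicate 2 left 8 of the 15 calls, with a median of −2.75, and leaving out Setdb1-KO replicate 2 left 10, with a median of −2.20. Dpp4, a dipeptidyl peptidase that cuts after proline or alanine near the start of a peptide, was at 358 and 497 CPM in WT and 23.7 and 51.4 CPM in Setdb1-KO (log2 fold change −3.13 ± 0.40, adjusted p = 4.34e-13). Anpep, the aminopeptidase N, changed least of the peptidases named here, from 696 and 833 CPM to 284 and 215 CPM (−1.72 ± 0.33 on the log2 scale, adjusted p = 2.34e-06).

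The carbohydrate side of the brush border fell with the peptidases. Mgam, the maltase-glucoamylase, was at 526 and 409 CPM in WT and at 71.1 and 58.7 CPM in Setdb1-KO. Lct, the lactase, had 192 and 183 CPM against 0 and 17.1 CPM. For Ggt1, the gamma-glutamyltransferase that breaks down glutathione, 324 UMIs in WT stood against 3 in Setdb1-KO, a ratio of 39.6 (13.4 to 193).

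Genes for the structure of the microvilli were lower as well. Of 14 tested, 13 were called lower and none higher, with a median of −2.06, against 4 lower without WT replicate 2 and 8 without Setdb1-KO replicate 2. Vil1, the actin bundler villin, was at 509 and 566 CPM in WT and at 166 and 132 CPM in Setdb1-KO (log2 fold change −1.95 ± 0.34, adjusted p = 3.66e-07). Ezr, or ezrin, which ties actin to the membrane, stood at 565 and 550 CPM against 94.8 and 117 CPM. The cadherins Cdhr2 and Cdhr5, which link the tips of microvilli, were at 577 and 440 CPM against 47.4 and 66.1 CPM for Cdhr2, and at 871 and 887 CPM against 213 and 171 CPM for Cdhr5. No library of either group crossed into the other in these 4 genes. Of all genes tested, 40.5% had both Setdb1-KO libraries below both WT libraries.

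Fat uptake and packaging split by gene. Of 20 genes tested, 15 were lower, none was higher and the median was −1.81, against 4 lower without WT replicate 2 and 8 without Setdb1-KO replicate 2. Apob, the core protein of the chylomicron, was at 1514 and 1426 CPM in WT and 190 and 154 CPM in Setdb1-KO (log2 fold change −3.19 ± 0.35, adjusted p = 2.17e-17). Apoc3, an inhibitor of lipoprotein breakdown, was at 1613 and 1663 CPM against 261 and 409 CPM. Npc1l1, which takes up cholesterol, went from 216 and 153 CPM to 0 and 14.7 CPM, and Acsl5, which activates fatty acids, from 435 and 459 CPM to 142 and 90.5 CPM.

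The most abundant members of that list did not pass the test. Rbp2, the cellular retinol carrier, was at 17251 and 17803 CPM in WT and at 8794 and 11839 CPM in Setdb1-KO (log2 fold change −0.76 ± 0.37, adjusted p = 0.0819). Dbi, the acyl-CoA binding protein, was at 4353 and 4132 CPM against 5547 and 6819 CPM (0.55 ± 0.33 on the log2 scale, adjusted p = 0.163). Both genes had libraries that did not overlap, in opposite directions. So did 40.5% of all genes tested on the lower side and 22.3% on the higher side.

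Bile acid recovery, the specialty of the ileum, was lower in 4 of 5 genes tested, with a median of −2.28, beside 27.0% of all genes called lower. It was lower in 2 without WT replicate 2 or Setdb1-KO replicate 2. Slc10a2, the apical sodium-dependent bile acid transporter, was at 83.5 and 91.7 CPM in WT and at 23.7 and 9.79 CPM in Setdb1-KO, the latter from 1 and 4 UMIs. The basolateral exporter is made of Slc51a and Slc51b. Slc51a was at 276 and 321 CPM against 190 and 127 CPM (log2 fold change −1.09 ± 0.34, adjusted p = 0.00607), and Slc51b at 478 and 665 CPM against 142 and 110 CPM (−2.28 ± 0.36, adjusted p = 4.3e-09). Abcc2, an apical export pump for conjugates, was at 367 and 268 CPM in WT and 23.7 and 29.4 CPM in Setdb1-KO.

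Of 21 transporters for nutrients and ions tested, 16 were lower and none higher, with a median of −1.78. The count was 8 without WT replicate 1, WT replicate 2 or Setdb1-KO replicate 2, each left out in turn. Slc5a1, the sodium-glucose cotransporter, was at 757 and 715 CPM in WT and at 119 and 137 CPM in Setdb1-KO (log2 fold change −2.46 ± 0.35, adjusted p = 5.04e-11). Slc6a19, the main carrier of neutral amino acids, had 193 and 206 CPM against 0 and 17.1 CPM, and Slc40a1, the iron exporter ferroportin, 322 and 210 CPM against 23.7 and 14.7 CPM. For Slc2a2, the basolateral glucose and fructose carrier, 148 UMIs in WT stood against 1 in Setdb1-KO, a ratio of 54.2 (9.58 to 2156). Atp1b1, a subunit of the sodium pump that all cells use, fell by less, from 916 and 917 CPM to 403 and 301 CPM.

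Xenobiotic metabolism was lower in 21 of 26 genes tested and higher in none, with a median of −1.98, against 10 lower without WT replicate 2. Gsta1, a glutathione transferase and the most abundant member, was at 7789 and 6054 CPM in WT and at 1067 and 1351 CPM in Setdb1-KO (log2 fold change −2.49 ± 0.34, adjusted p = 2.25e-11). Gstm3, of another class of the same enzymes, was at 5152 and 6230 CPM against 1446 and 1656 CPM, and Abcb1a, the drug efflux pump P-glycoprotein, at 1241 and 940 CPM against 190 and 115 CPM. The carboxylesterases Ces2a and Ces2e did not move alike. Ces2a was at 1021 and 902 CPM against 142 and 108 CPM (−3.08 ± 0.36 on the log2 scale, adjusted p = 1.48e-15), and Ces2e at 995 and 1112 CPM against 853 and 736 CPM (−0.43 ± 0.30, adjusted p = 0.232). The difference between both esterases was not tested.

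**Figure D3:**
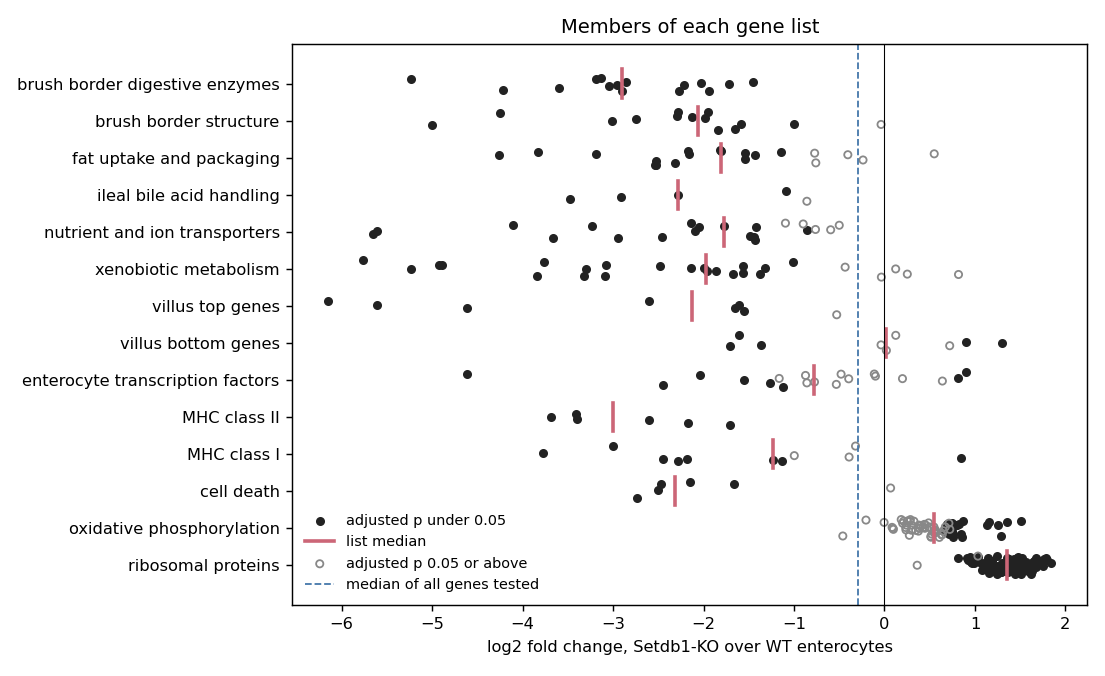
Each point is a tested gene of a list, placed by its log2 fold change between Setdb1-KO and WT enterocytes, with called genes filled and the list median marked. The 15 brush border enzymes lie around a median of −2.90 and the 76 ribosomal protein genes around 1.35, beside a median of −0.29 for all 3414 genes.

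Of 19 transcription factors of the enterocyte list that were tested, 6 were lower and 2 higher, with a median of −0.77, shares near the 27.0% lower and 14.2% higher of all genes. Leaving out either WT library left none higher and 2 or 1 lower. Hnf4a, a nuclear receptor that drives enterocyte genes, was at 159 and 107 CPM in WT and at 47.4 and 31.8 CPM in Setdb1-KO (log2 fold change −2.04 ± 0.45, adjusted p = 4.61e-05). Its paralog Hnf4g went the other way, at 108 and 87.9 CPM in WT and 308 and 159 CPM in Setdb1-KO (0.90 ± 0.34, adjusted p = 0.0242). The 2 paralogs thus moved in opposite directions, each with groups that did not overlap, and neither passed the test with DESeq2 or without either WT library.

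Klf4, a factor of the upper villus, showed the largest fall of the list, from 333 and 325 CPM to 0 and 14.7 CPM (log2 fold change −4.61 ± 0.51, adjusted p = 1.23e-17). Maf, which acts in villus enterocytes, was at 333 and 290 CPM against 94.8 and 51.4 CPM, and Creb3l3, a regulator of apolipoprotein genes, at 296 and 237 CPM against 166 and 78.3 CPM. Vdr, the vitamin D receptor, was called lower (−1.27 ± 0.39, adjusted p = 0.00517) although its libraries overlapped, at 182 and 145 CPM in WT and 213 and 46.5 CPM in Setdb1-KO. The log2 fold change of Vdr was 0.28 without Setdb1-KO replicate 2. Klf5, a factor of crypt and lower villus cells, was at 151 and 168 CPM against 190 and 179 CPM and did not pass the test (0.20 ± 0.33, adjusted p = 0.651).

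Genes of the villus top and bottom were counted apart, and the difference between both lists was not tested. In the top list 7 of 8 tested genes were lower, none was higher and the median was −2.13, against 4 lower without either WT library. Krt20, a keratin of shed epithelium, was at 610 and 436 CPM in WT and at 119 and 80.7 CPM in Setdb1-KO. Slc28a2, a nucleoside carrier, had 153 UMIs in WT and 1 in Setdb1-KO, a ratio of 56.1 (9.91 to 2229).

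In the bottom list 2 of 9 tested genes were higher, 3 lower and the median was 0.02, beside 14.2% higher and 27.0% lower of all genes, and neither rise passed without either WT library. Ccl25, a chemokine that draws lymphocytes to the small intestine, was at 623 and 631 CPM in WT and 1588 and 1502 CPM in Setdb1-KO (log2 fold change 1.29 ± 0.29, adjusted p = 8.23e-05). Lypd8, which keeps flagellated bacteria from the epithelium, was at 315 and 447 CPM against 664 and 714 CPM (0.90 ± 0.29, adjusted p = 0.00851). The antibacterial lectins Reg3b and Reg3g were lower, with 8238 and 14000 CPM against 3579 and 4957 CPM for Reg3b and 6700 and 14963 CPM against 3224 and 3401 CPM for Reg3g. Reg1, of the same family, was at 1358 and 1028 CPM against 830 and 1385 CPM, with groups that overlapped (−0.04 ± 0.29, adjusted p = 0.929).

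As a single measure, the top list was taken as a share of the UMIs of both villus lists. The share was 13.7% and 6.60% in WT members and 3.90% and 2.45% in Setdb1-KO members, with means of 10.1% ± 5.00 and 3.18% ± 1.03 (SD, n = 2 each). Both Setdb1-KO libraries were below both WT libraries, the difference was −6.96 percentage points, and the two-sided exact permutation p of 0.333 is the smallest that 2 against 2 libraries allow. Among cells with carriers of at least 5%, the difference was 0.815 points in the other direction. Members of the Lgr5+ sort also went the other way, with shares of 1.77% and 2.24% in WT and 4.42% and 4.53% in Setdb1-KO. The difference between the sorts was not tested. In the Lgr5+ sort no top gene of 9 tested was called by genotype, with a median log2 fold change of 0.02. Of the bottom list, Reg3b was there at 26659 and 12900 CPM in WT and at 4411 and 3840 CPM in Setdb1-KO. The higher share thus went with less Reg3b and is not read as a place on the villus.

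MHC class II genes, which present antigen to CD4+ T cells and are expressed by ileal enterocytes, were lower in all 6 members tested, with a median of −3.01, against 3 without WT replicate 2. H2-Aa was at 520 and 661 CPM in WT and at 47.4 and 56.3 CPM in Setdb1-KO (log2 fold change −3.40 ± 0.39, adjusted p = 7.95e-16). Cd74, the invariant chain that escorts class II molecules, was at 2033 and 2989 CPM against 450 and 394 CPM (−2.61 ± 0.33, adjusted p = 2.99e-13). H2-Ab1 was at 299 and 290 CPM against 47.4 and 19.6 CPM, and H2-Eb1 at 410 and 482 CPM against 23.7 and 44.0 CPM. The B and plasma cell and macrophage markers were at 0 to 2 UMIs in these sums.

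Of the class I presentation genes 7 of 11 tested were lower and 1 was higher, beside 27.0% and 14.2% of all genes, and the median was −1.23, against 3 lower without WT replicate 2 and 4 without WT replicate 1 or Setdb1-KO replicate 2. H2-K1, a heavy chain, was at 810 and 764 CPM in WT and 213 and 149 CPM in Setdb1-KO. B2m, the shared light chain, was at 1076 and 933 CPM against 450 and 421 CPM (log2 fold change −1.23 ± 0.31, adjusted p = 0.00042). Of the interferon response list only 5 genes passed the filter on low counts, with 1 called lower, a share not above that of all genes. This was Irf7, at 100 and 176 CPM against 23.7 and 75.8 CPM (adjusted p = 0.0499).

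Among stress and death genes, 6 of 12 cell death genes passed the filter on low counts, and 5 of these were lower and none higher, with a median of −2.31 beside 27.0% lower of all genes, and 2 were called without either WT library or Setdb1-KO replicate 2. Gsdmd, the pore former of pyroptosis, was at 116 and 107 CPM in WT and at 0 and 22.0 CPM in Setdb1-KO. The cell cycle inhibitor Cdkn1a, a p53 target, was at 185 and 145 CPM against 0 and 26.9 CPM (log2 fold change −2.80 ± 0.46, adjusted p = 3.7e-08), in a p53 list of which 3 of 11 genes were tested and 2 called lower. The other gene called lower there, Mdm2, overlapped between the groups and had a log2 fold change of 0.31 without Setdb1-KO replicate 2. Metallothioneins and zinc carriers were lower in 4 of 5, with a median of −0.89, beside 27.0% of all genes, and in 2 without either WT library or Setdb1-KO replicate 2, and Mt1, which binds zinc and copper, was at 1059 and 883 CPM against 498 and 573 CPM.

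Of the genes higher in Setdb1-KO, Gpx1, the cytosolic glutathione peroxidase, was at 307 and 413 CPM in WT and at 1730 and 2138 CPM in Setdb1-KO (log2 fold change 2.47 ± 0.30, adjusted p = 2.67e-14). Pycard, the inflammasome adaptor, was at 371 and 317 CPM against 1090 and 1921 CPM (2.18 ± 0.29, adjusted p = 7.63e-12). Dmbt1, a secreted mucosal protein that binds bacteria, was at 205 and 203 CPM against 1090 and 888 CPM (2.24 ± 0.30, adjusted p = 8e-12). In each case the lowest Setdb1-KO library was at more than the highest WT library, which the choice of these genes by adjusted p required.

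Hspe1, the mitochondrial co-chaperonin, was at 612 and 474 CPM in WT and 1754 and 2327 CPM in Setdb1-KO. Krt18 and Krt19, keratins of simple epithelia that are abundant in immature cells, were both higher. Krt19 was at 218 and 164 CPM against 616 and 516 CPM (log2 fold change 1.48 ± 0.31, adjusted p = 1.37e-05). Krt18 was at 210 and 283 CPM against 284 and 1307 CPM (1.95 ± 0.29, adjusted p = 1.21e-09), so that its rise lay mostly in Setdb1-KO replicate 2, and among cells with carriers of at least 5% its log2 fold change was −0.47.

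Ribosomal protein genes were higher in 74 of 76 tested and lower in none, beside 14.2% of all genes called higher, with a median of 1.35. Rps2 was at 592 and 585 CPM in WT and at 1493 and 2586 CPM in Setdb1-KO (log2 fold change 1.84 ± 0.29, adjusted p = 1.35e-08). The abundant Rpl37 was at 5821 and 4827 CPM against 10572 and 13163 CPM (1.16 ± 0.35, adjusted p = 0.00373). As a share of all UMIs the list took 8.51% and 7.67% of WT enterocytes and 23% and 22.7% of Setdb1-KO enterocytes. It took 14.3%, 14.7%, 26.0% and 28.4% of the UMIs of all other kept barcodes and 14.0%, 14.6%, 27.3% and 26.5% of the free RNA. The same direction was thus seen in every fraction of these libraries, free RNA included. Without WT replicate 2 none of the 76 genes was called, and without WT replicate 1 there were 10.

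Nuclear genes of oxidative phosphorylation were higher in 28 of 75 tested and lower in none, with a median of 0.55, beside 14.2% of all genes called higher. The list took 7.16%, 6.61%, 10.5% and 11.4% of the enterocyte UMIs, 4.60%, 4.58%, 6.36% and 7.80% of those of the other barcodes and 4.47%, 4.52%, 7.04% and 7.31% of the free RNA, so that it was higher in Setdb1-KO in all 3 fractions. Atp5g2, which codes for the c subunit of the ATP synthase, was at 562 and 474 CPM in WT and 1327 and 1590 CPM in Setdb1-KO, and its paralog Atp5g1 at 1605 and 1452 CPM against 2844 and 3907 CPM. Cox6c, a subunit of cytochrome oxidase and the most abundant member named here, was at 4565 and 4292 CPM against 4693 and 6041 CPM and did not pass (log2 fold change 0.29 ± 0.32, adjusted p = 0.488). Without Setdb1-KO replicate 1 there were 65 calls, without Setdb1-KO replicate 2 there were 8, without WT replicate 1 there was 1 and without WT replicate 2 none, and DESeq2 called 7. Transcripts of the mitochondrial genome, which the rule caps at 5% per cell, were lower in 8 of 13 with a median of −0.79, beside 27.0% of all genes called lower.

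Genes of crypt and proliferating cells were near the detection limit. None of 4 stem cell genes and none of 6 proliferation genes tested was called in either direction, with medians of −0.52 and 0.10. Olfm4, a stem cell marker, was at 151 and 84.1 CPM in WT and at 47.4 and 90.5 CPM in Setdb1-KO (adjusted p = 0.2). Of the list on Setdb1 and H3K9 methylation, 2 genes were tested and none was called. No tuft, T cell, B cell, macrophage, stromal or clustered protocadherin gene passed the filter on low counts.

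All 7 Paneth genes tested were lower (median −2.41), and 3 of 7 goblet genes were (median −0.50), beside 27.0% lower and a median of −0.29 over all genes, and 1 enteroendocrine gene was tested and not called. Defa17, Defa24 and Defa30 of the Paneth list and Muc2 and Zg16 of the goblet list are genes that the rule caps, so these counts are a description. Neat1, a nuclear long noncoding RNA, was at 360 and 378 CPM in WT and at 47.4 and 39.1 CPM in Setdb1-KO, while Malat1, an abundant nuclear RNA, was at 50820 and 50756 CPM against 30577 and 36047 CPM (log2 fold change −0.61 ± 0.42, adjusted p = 0.237). Gas5, whose introns carry small nucleolar RNAs, was at 126 and 72.6 CPM against 403 and 262 CPM. Immediate early and heat shock genes were lower in 4 and higher in 1 of 6 tested, with a median of −1.45, and colonic genes lower in 3 and higher in 1 of 5, with a median of −2.54. Without WT replicate 2 the lower calls were 2 in the Paneth list, 0 in the goblet list and 1 among immediate early genes. The part of RNA quality or of other cells in the genotype difference was not tested.

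With free RNA subtracted, all 15 brush border enzymes were still lower (median −2.67) and 75 of 76 ribosomal genes higher (median 2.02). The amount subtracted was set from the defensin UMIs, which sets the defensin total near 0 by construction, so that the Paneth list (4 genes tested, median 3.78) can no longer be compared there.

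Since Fabp1 led in most Setdb1-KO members, the comparison was repeated among Fabp1-led cells alone, a choice made after seeing the data. Fabp1 is a gene of the rule and its lead differed by genotype, so that this comparison is a description. These were 157 and 27 cells in WT and 15 and 89 in Setdb1-KO, in which 258 of 1718 genes were called, 104 higher and 154 lower. Brush border enzymes were lower in 9 of 10 tested (median −2.21), microvillus genes in 5 of 6 (−1.58), xenobiotic genes in 16 of 22 (−2.0) and MHC class II in 3 of 3 (−3.43). Genes that passed the filter on low counts only through WT had to be lower here too. In Fabp1-led Setdb1-KO cells the whole class II list had 2 and 68 UMIs, the microvillus list 22 and 253 and the enzyme list 34 and 247. Counts of lower genes in these 3 lists therefore say little. Fat uptake genes were lower in 6 of 13 (−1.33) and ribosomal genes higher in 63 of 75 (1.04). Oxidative phosphorylation had 1 gene higher of 73 with a median of 0.10, near the median of −0.05 for all genes in these cells.

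The shares of UMIs in the same Fabp1-led cells are likewise a description. Xenobiotic genes gave 3.05% and 3.27% of the UMIs of WT Fabp1-led cells and 0.709% and 0.556% of those in Setdb1-KO. Brush border enzymes gave 0.267% and 0.247% against 0.119% and 0.0654%, and MHC class II 0.165% and 0.146% against 0.00702% and 0.0180%. Oxidative phosphorylation gave 10.4%, 10.3%, 11.3% and 12.0%, a narrow range. Genotype groups did not overlap in any of these 4 measures, while the last differed by little.

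Within WT, cells led by different carriers differed among themselves. Apoa1-led cells held 0.743% and 0.812% of their UMIs in brush border enzymes, against 0.267% and 0.247% in Fabp1-led cells. Apoa4-led cells had the villus top genes at 1.16% and 1.15%. Fabp6-led cells held 4.23% and 7.36% in villus bottom genes, against 1.17% and 0.985% in Fabp1-led cells. In Setdb1-KO replicate 2 the 26 Fabp6-led cells had 4.58% in villus bottom genes, a level within the WT range, with brush border enzymes at 0.142% against 0.526% and 0.456% in WT. These are sums over cells of 1 library each and carry no test.

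**Figure D4:**
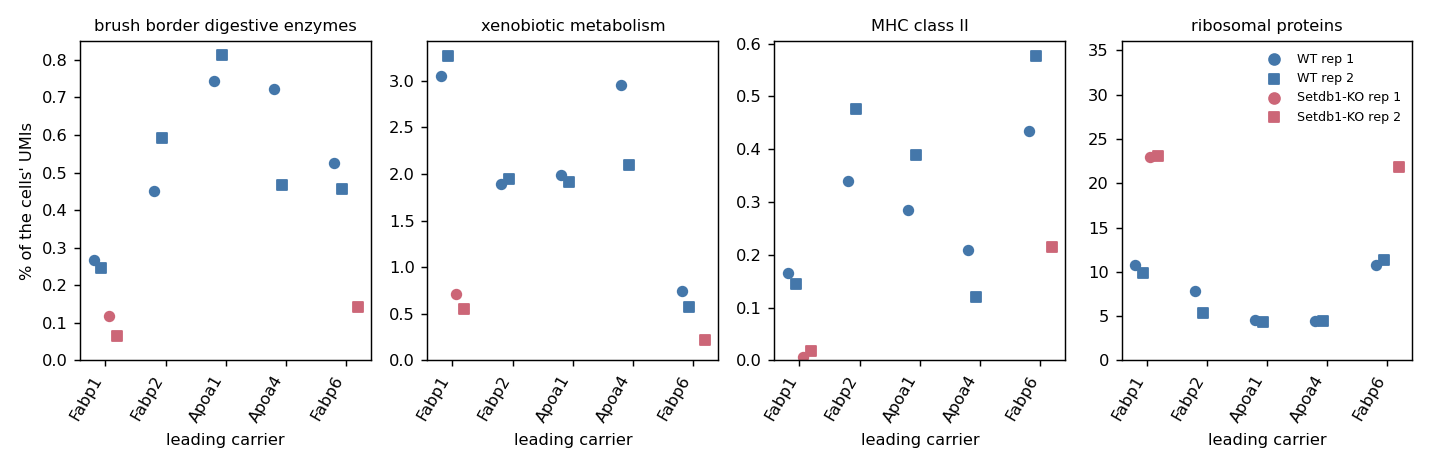
Points give the percent of UMIs (y axis) that 4 gene lists took in the enterocytes of each library (WT blue, Setdb1-KO red), split by the leading carrier of the cell (x axis), for carrier groups of at least 10 cells. Within Fabp1-led cells, xenobiotic genes were at 3.05% and 3.27% in WT and at 0.709% and 0.556% in Setdb1-KO.

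The study also asks about variability between cells. After thinning to 500 UMIs, the median coefficient of variation over 550 genes was 239% and 237% in WT members and 200% and 211% in Setdb1-KO members, of which replicate 1 has 17 cells. The difference of −32.4 percentage points was larger than the spread within groups, but the exact permutation test cannot give less than its p of 0.333 here. Divided by the value that counting alone would give, the coefficients were 1.04, 1.04, 0.968 and 1.03, so that the measured variation was close to counting noise at this depth.

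The next question was whether the genotype difference was the same in members of the Lgr5+ sort, chosen by the same rule. They were deeper, with medians of 8431.5 and 6888 UMIs in WT and 11341 and 4908 UMIs in Setdb1-KO. Their median defensin share was 0.111% and 0.174% in WT and 0.128% and 0.430% in Setdb1-KO. In lineage-traced members it was 9.44%, 9.67%, 0.736% and 1.56%. The part of depth and free RNA in the comparison of the sorts was not tested. Of 5882 genes tested in all 8 libraries together, 792 or 13.5% had a genotype difference that differed between the sorts, with 223 (3.79%) more positive and 569 (9.67%) more negative in lineage-traced cells, and 1631 (27.7%) at an unadjusted p under 0.05. The count was 107 without Setdb1-KO replicate 2, of which 7 were more positive, 295 without WT replicate 1, 523 without WT replicate 2 and 261 with DESeq2. In the same fit 1535 genes differed by genotype in the lineage-traced cells and 30 in the Lgr5+ sort. The sorts were separate preparations, so that the sort and the preparation cannot be told apart. In the Lgr5+ sort Fabp1 led in 37.5% and 78.9% of WT and in 79.9% and 64.1% of Setdb1-KO members.

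Brush border enzymes differed in all 15 of 15 members. Their median log2 fold change was −2.93 in lineage-traced cells and −0.03 in the Lgr5+ sort, and the median of the difference was −2.93, beside −0.27 for all genes. Alpi stood in this fit at 917 and 795 CPM in lineage-traced WT and 168 and 99.9 CPM in lineage-traced Setdb1-KO, but at 121 and 120 CPM in Lgr5+ WT and 145 and 163 CPM in Lgr5+ Setdb1-KO. The difference of its fold changes was −3.28 ± 0.39 on the log2 scale (adjusted p = 3.27e-06). The WT level in the Lgr5+ sort was thus within the range of the lineage-traced Setdb1-KO libraries.

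Sis had another pattern, with 505 and 402 CPM in lineage-traced WT and 147 and 169 CPM in lineage-traced Setdb1-KO, against 708 and 563 CPM in Lgr5+ WT and 590 and 975 CPM in Lgr5+ Setdb1-KO (difference −1.78 ± 0.42, adjusted p = 0.00585). Apob was at 1536, 1498, 168 and 161 CPM in lineage-traced cells and at 136, 129, 133 and 108 CPM in the Lgr5+ sort. For Rps2 the lineage-traced levels were 601, 614, 1327 and 2707 CPM and the Lgr5+ levels 3332, 3931, 3628 and 3474 CPM. In the Lgr5+ sort the genotypes therefore overlapped for Apob and Rps2. Lineage-traced WT alone was high for Apob, and all 4 lineage-traced libraries were below the Lgr5+ sort for Rps2.

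Other lists differed between the sorts in a smaller part. The difference was more negative in 10 of 14 microvillus genes (median −2.12), 13 of 21 fat genes (−1.81), 12 of 24 transporters (−1.84) and 21 of 26 xenobiotic genes (−2.41), with 1 xenobiotic gene, Adh6a, more positive. MHC class II differed in 4 of 6 (−1.90), with a median genotype difference of −0.98 in the Lgr5+ sort, none of it called. Ribosomal genes were more positive in 32 of 76 (1.16), beside 3.79% of all genes. Oxidative phosphorylation genes were more positive in 4 of 75 (0.50), a share near that of all genes.

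**Figure D5:**
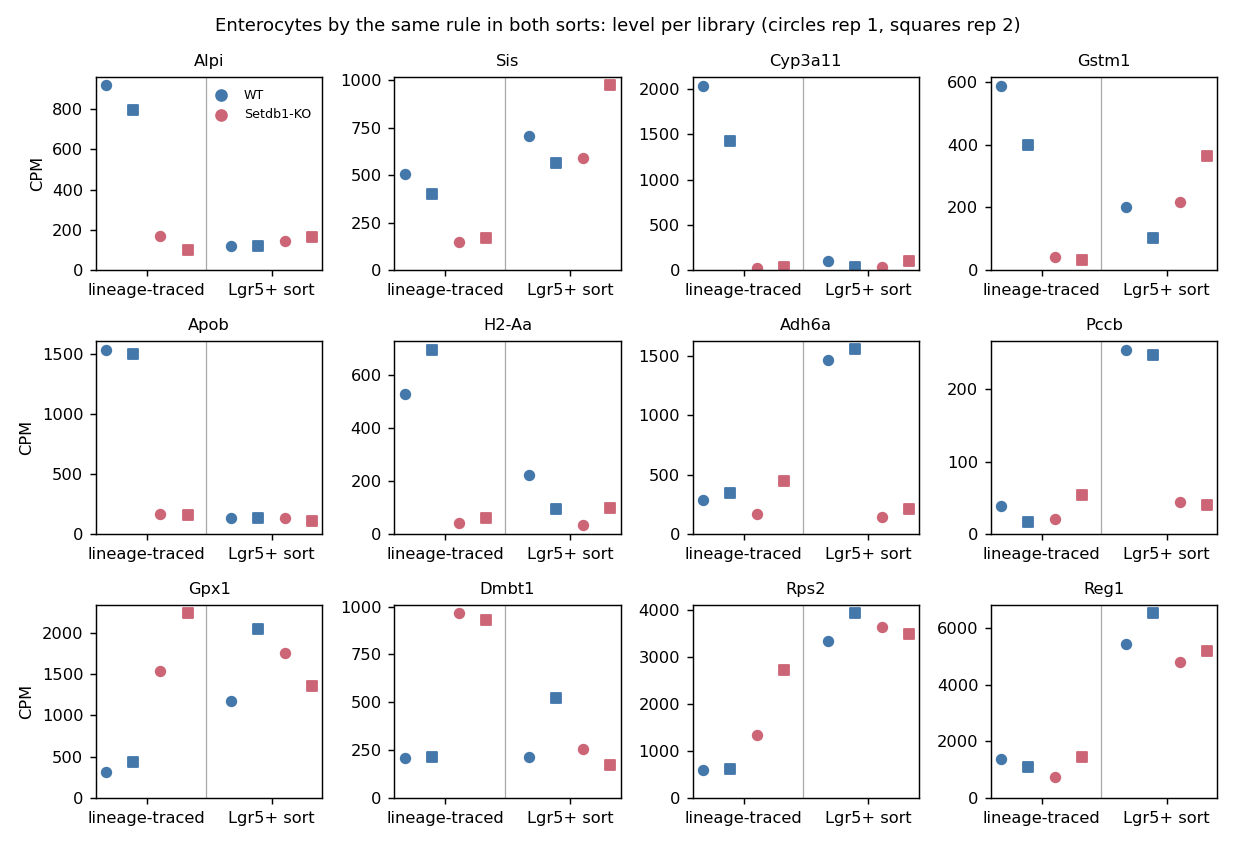
Each panel gives the level of 1 gene in CPM (y axis) in the 4 lineage-traced and the 4 Lgr5+ sort libraries (x axis), with WT in blue, Setdb1-KO in red and replicates by shape. Alpi was at 917 and 795 CPM in lineage-traced WT and between 99.9 and 168 CPM in the other 6 libraries.

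The last comparison asked whether the genotype difference was particular to enterocytes among the lineage-traced cells. For most genes a difference was not detected. With library as a block, 55 of 10733 genes (0.512%) had a genotype difference in enterocytes that differed from that in the other kept barcodes, 24 more positive (0.224%) and 31 more negative (0.289%), with 846 (7.88%) at an unadjusted p under 0.05. Among the other barcodes alone, 678 of 12134 genes (5.59%) were called, 0.997% higher and 4.59% lower. The other barcodes include cells just under the carrier limit, and each pair of sums shares its library.

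In the other barcodes 11 of the 15 brush border enzymes were called lower in Setdb1-KO, with a median log2 fold change of −2.44. The list took 0.0338%, 0.0395%, 0.0182% and 0.0111% of the UMIs of the other barcodes and 0.0503%, 0.0389%, 0.0153% and 0.0105% of the free RNA. How much of the RNA in the other barcodes was free was not estimated, so that these levels are not read as expression in the other cells. In the enterocytes the list took 0.473%, 0.499%, 0.148% and 0.0857%. Alpi in the other barcodes was at 72.8 and 99.2 CPM in WT and at 5.39 and 3.53 CPM in Setdb1-KO, and its fold change differed from that in enterocytes by 1.59 ± 0.50 on the log2 scale without passing the test (adjusted p = 0.149). Over the 15 enzymes the median difference was 0.66, beside −0.17 for all genes. The interaction was called for Dpp4 and Mgam, both more negative in enterocytes, and the free RNA limits these comparisons as it does that of Alpi, so that no difference between cell types is read from them. Dpp4 was at 32.4 and 39.6 CPM in the other WT barcodes and at 24.0 and 28.1 CPM in the other Setdb1-KO barcodes, and the difference of fold changes was −2.65 ± 0.50 (adjusted p = 0.000188).

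Of the MHC class II genes 4 of 7 were called here, with a median difference of −1.96. This list took 0.0602%, 0.0754%, 0.0492% and 0.0692% of the UMIs of the other barcodes and 0.0424%, 0.0595%, 0.0306% and 0.0364% of the free RNA, so that the same limit holds and no difference between cell types is read from it. The 4 were H2-Aa, H2-Eb1, H2-Ab1 and Cd74, all more negative in enterocytes. H2-Aa in the other barcodes was at 83.3 and 112 CPM in WT and at 43.8 and 71.4 CPM in Setdb1-KO, where its fold change was not called (adjusted p = 0.196). None of the 76 ribosomal genes was called (median difference 0.87).

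The interaction was also called for 3 of the genes with the largest rises. Gpx1 was at 356 and 663 CPM in the other WT barcodes and at 460 and 743 CPM in the other Setdb1-KO barcodes, and its fold change was larger in enterocytes by 2.07 ± 0.48 on the log2 scale (adjusted p = 0.00951). Dmbt1 stood at 510, 473, 563 and 556 CPM in the other barcodes (difference 2.01 ± 0.47, adjusted p = 0.01), and Pycard at 504, 664, 526 and 813 CPM (1.83 ± 0.49, adjusted p = 0.0398). In the other barcodes the genotypes overlapped for Gpx1 and Pycard and not for Dmbt1. In enterocytes all 3 genes were apart, as their choice required. The levels in the other barcodes were not separated from free RNA, so that no difference between cell types is read from them.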

How the data were processed

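Single-cell RNA was measured in 8 libraries with the 10x Genomics 3′ assay, of which 4 are lineage-traced. The authors aligned reads with Cell Ranger to mm10 and deposited unfiltered UMI counts per gene and barcode, with no cell annotation. The version is 6.1.1 in the methods and 4 in the matrix headers. The tools listed for the series, such as Seurat 5.0.3, left no mark on these counts. Total RNA, ATAC and H3K9me3 samples were not used here.

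The members and gene lists were chosen with earlier results of these data known. Kept barcodes were selected, and enterocyte UMIs summed per library, in Python 3.11.15. Replicates are libraries, 2 per group. The sums were tested with edgeR 4.0.16 in R 4.3.3 (filterByExpr, TMM, quasi-likelihood test, Benjamini-Hochberg adjustment over all genes tested, threshold 0.05). Reported adjusted p-values come from these fits. Sort by genotype and class by genotype were interaction terms. DESeq2 1.42.0 was an alternative, and Scrublet (scanpy 1.11.5) marked doublets without removal. Scripts were tested on simulated counts. Library totals were 16881518 to 43046925 UMIs. Detection and variation used cells thinned to 500 UMIs.

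Named genes were the 12 with the smallest adjusted p in each direction (log2 change of at least 1, libraries apart, mean CPM of at least 20, no gene of the rule, no mitochondrial gene), the 6 markers, the genes of the rule with Setdb1 and GFP, the 4 most abundant and up to 6 called genes of each of 38 lists, and 6 per direction in each interaction. A gene that shares sequence with near copies (Gm5485, Gm3776, Defa genes) may have lost or gained reads. A few genes that this rule names are not reported here.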

Additional observations from a re-analysis of the deposited data

Results flagged for a closer look

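The genotype difference differed between lineage-traced enterocytes and those of the Lgr5+ sort in 792 of 5882 genes, and between enterocytes and the other lineage-traced barcodes in 55 of 10733 genes, both by an interaction term at an adjusted p under 0.05. The genes below have the smallest adjusted p of each kind. Values are differences of log2 fold changes, from edgeR with Benjamini-Hochberg adjustment.

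The 6 genes of each direction stand out between the sorts. Adh6a, an alcohol dehydrogenase, had a difference of 3.31 ± 0.42 (adjusted p = 6.95e-06). It was at 1466 and 1558 CPM in Lgr5+ WT and at 144 and 213 CPM in Lgr5+ Setdb1-KO, but at 290, 349, 168 and 451 CPM in lineage-traced cells. Pccb, a subunit of propionyl-CoA carboxylase, differed by 3.15, at 254 and 247 CPM against 43.7 and 40.4 CPM in the Lgr5+ sort and at 39.0, 16.1, 21.1 and 53.8 CPM in lineage-traced cells. For both genes it was thus the Lgr5+ sort that showed the fall. Dmbt1 differed by 2.98, Gpx1 by 2.45, Tspo (a mitochondrial membrane protein) by 2.12 and Pglyrp1 (a peptidoglycan recognition protein) by 1.89, each with the rise in the lineage-traced cells.

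Gda differed by −4.89, Atp2b1 by −4.47, Ces2a by −3.67, Gstm1 by −4.83 and Guca2b, the precursor of uroguanylin, by −3.57. Guca2b was at 1007 and 988 CPM in lineage-traced WT and at 84.2 and 154 CPM in lineage-traced Setdb1-KO, against 604 and 455 CPM and 794 and 955 CPM in the Lgr5+ sort. Apoa4 differed by −4.10, but is a gene of the rule and is given as a description.

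Between enterocytes and the other lineage-traced barcodes, Reg1 differed by 2.50 ± 0.48 (adjusted p = 0.000236), being at 116 and 175 CPM in the other WT barcodes and at 24.4 and 21.7 CPM in the other Setdb1-KO barcodes, with enterocyte values that overlapped. Adh6a differed by 2.05 and Car4, a membrane carbonic anhydrase, by 1.86. Gm3776 differed by 2.96 and Gm21885 by 2.58, both predicted genes, and the defensin Defa27 by 2.90, which the rule used.

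The levels of these genes in the other barcodes were not separated from free RNA, so that no difference between cell types is read from them. Differences were negative for Gm5485 at −3.41, Atp2b1 at −3.34, Klf4 at −3.39, H2-Aa at −2.75, Dpp4 at −2.65 and H2-Eb1 at −2.72. Klf4 was at 81.3 and 83.6 CPM in the other WT barcodes and 49.5 and 35.5 CPM in the other Setdb1-KO barcodes.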

How the results depend on the processing

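Of 146 named genes called by genotype, 33 lost the call with DESeq2, 15 with a replicate block, 2 with DESeq2 size factors, 13 with free RNA subtracted, 28 without the filter on low counts, 26 in Fabp1-led cells and 84 with the brush border definition, where 7 more turned direction, and leaving out 1 library cost 6 to 87 calls (87 without WT replicate 2). The count of 1409 genes that differed by genotype became 375 with DESeq2, 840 with a replicate block, 402 with carriers of at least 5%, 47 with brush border enzymes in place of carriers, 393 after thinning to 500 UMIs and 258 in Fabp1-led cells, and 302 to 1716 when 1 library was left out. It stayed within 1.5 times under the other choices. Some of the 146 named genes were no longer tested under some choices. The call was kept by 26 of them with the brush border definition and by 86 in Fabp1-led cells. The 792 genes that differed between the sorts became 261 with DESeq2, 488 with a replicate block and 182 with carriers of at least 5%, and 107 to 861 without 1 library (107 without Setdb1-KO replicate 2). The 55 genes that differed between cell classes became 29 with DESeq2, 177 with DESeq2 size factors and 26 to 42 without 1 library. The difference in enterocyte share of kept barcodes, −6.58 points, became −2.47 with carriers of at least 5% and −3.78 with the brush border definition, and −9.20 to −3.95 without 1 library (−3.95 without WT replicate 1). The villus top share of zonation transcripts differed by −6.96 points, which became 0.815 with carriers of at least 5%, where Setdb1-KO replicate 1 has few UMIs, and −13.1 with the brush border definition, and −10.5 to −3.42 without 1 library (−3.42 without WT replicate 1). The difference in median CV over genes in enterocytes, −32.4 points, became −23.7 with carriers of at least 1%, −53.9 with at least 5% and −40.9 with at least 1000 UMIs. It became −65.2 with the brush border definition and −40.7 without doublets, and ranged from −40.7 to −21.0 without 1 library. Few cells cap the CV. Setdb1-KO has 3 and 6 cells with the brush border definition and 4 and 13 with carriers of at least 5%. With at least 1000 UMIs, Setdb1-KO replicate 1 has 8 cells. Of the lists with at least 5 genes tested, 21 had a median below that of all genes, and 13 under carriers of at least 5%, the brush border definition, thinning or Fabp1-led cells, where fewer genes were tested. The direction of single genes turned with free RNA subtracted for the log2 fold change of Defa24 (0.0376), Defa17 (7.52), Itln1 (9.26), Spink4 (0.19) and mt-Co2 (0.11), with the brush border definition for the log2 fold change of Reg3b (0.0935), Fabp1 (−1.45), Fabp6 (0.29), Krt18 (−1.21), Ndufb10 (−0.64), Sis (0.11, itself one of the enzymes that then select the cells) and Slc51a (0.32), with carriers of at least 5% for Krt18 (−0.47), and with 1 library left out for Mdm2 (−2.0 to 0.31) and Vdr (−1.56 to 0.28), in both without Setdb1-KO replicate 2. The cause was not tested. Same-numbered WT and Setdb1-KO libraries deviated with a correlation of 0.083, so their numbers were not shown to pair them. The comparison of Fabp1-led cells, the list medians under the alternatives and the shares without 1 library were chosen after seeing the data. Depth limits Setdb1-KO replicate 1 most, with 38577 enterocyte UMIs.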
